A study of Mus musculus with 8 samples.

Results

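Matrix proteases and their inhibitors are described here in the mesonephric tubules of mouse embryos, as 39 genes out of 33413 features that were measured and tested on the arrays. The genes were chosen by name: 8 secreted and 4 membrane-bound matrix metalloproteinases (Mmp), the 4 tissue inhibitors of metalloproteinases (Timp), 6 Adam genes, 13 Adamts genes and 4 genes of plasminogen activation. Each gene was represented by the brightest of its probes. All 39 passed the filter on dim probes, and 27 of them were well above background on all 8 arrays. Of all 33413 features, 28125 were.

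The mesonephros is a transient embryonic kidney, and its tubules were cut by microdissection from frozen sections stained with toluidine blue. There were 3 arrays labelled p21-null (p21 knockout, or -/-, in the labels) and 5 wild type arrays, all from the strain C57/BL6. The design describes the tubules without p21 as non-senescent and those of the wild type as senescent. p21 is the cyclin-dependent kinase inhibitor encoded by Cdkn1a. The labels used here give neither the embryonic stage, nor the kind of p21 allele, nor whether each sample came from its own embryo, so each p-value reflects just the spread among these samples.

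Matrix metalloproteinases are zinc-dependent enzymes, mostly made as inactive precursors, that cleave collagens, proteoglycans and other proteins outside the cell. The Timps bind their active sites and block them. Adam proteins sit in the cell membrane and many release the outer parts of membrane proteins, whereas Adamts proteins are secreted and cut proteoglycans or procollagens. Plasminogen activators convert plasminogen to plasmin, a broad protease that also activates some metalloproteinase precursors. Several of these genes are known as part of the secreted products of senescent cultured cells.

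Signals are given on a log2 scale relative to the 75th percentile of each array, so that a value of 0 is the brightness of that percentile. Probes differ in brightness, and a level is compared only between arrays for the same gene. Differences are labelled p21-null minus wild type, tested with limma and adjusted by the Benjamini-Hochberg method over all 33413 features.

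Cdkn1a did not separate the groups. Its signal was 2.11, 0.96 and 1.40 in the arrays labelled p21-null, against 2.49, 2.52, 0.44, 1.85 and 1.11 in the wild type arrays, a difference of −0.19 (SE 0.54, adjusted p = 0.950). Whether its probe lies in the deleted part is unknown, so the targeted gene does not check the labels, and every direction below rests on the labels alone. On single arrays, 82.2% to 89.2% of probes gave signal well above background, and no spot was saturated. Precision is limited by the number of arrays. These were spread over 3 slides, each with both groups. Of the 12 markers of mesonephric epithelium, 11 were above background on every array. The mean of the 12 was −1.02, −0.68 and −1.46 in the arrays labelled p21-null, against 0.94, −1.67, −0.82, −0.28 and −1.47 in the wild type arrays. Of these markers 4 had a positive and 8 a negative difference (mean difference −0.39). The arrays labelled p21-null were higher for all 11 liver markers, their mean being 4.40, 2.97 and 4.18, against 1.28, −0.42, 1.91, 1.20 and 3.14 in the wild type arrays. Neutrophil markers were also higher (7 of 8, a mean difference of 2.34), as were erythroid (7 of 8, 1.80) and macrophage markers (9 of 11, 0.85), and all 9 neural markers were lower (−1.80). Of the 7 gonad and mesothelium markers 5 were lower and 2 higher (−0.78). Their summed linear level was 2.56 to 3.30 in arrays labelled p21-null and 4.29 to 6.72 in wild type arrays. Endothelium markers were 6 higher and 2 lower (0.26). Stroma and smooth muscle are given further below. In bulk samples such as these, fewer cells of a type and less RNA per cell cannot be told apart.

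The question put to the genes was whether tubules labelled p21-null carried other amounts of protease and inhibitor RNA than wild type tubules. None of the 39 passed an adjusted p of 0.05, and neither did any feature on the arrays (0% of 33413). At an unadjusted p under 0.05 there were 4 members (10.3%), beside 10.2% of all features, so their share was that of the background. Of these, 3 were lower in arrays labelled p21-null (7.69%, beside 3.92% of all features), namely Plau, Adamts19 and Adam19. The other, Adam10, was higher (2.56%, beside 6.24% of all features). In 3 genes, Plau, Adam19 and Adam12, the groups did not overlap (7.69%, beside 6.87% of all features). All 3 were lower in arrays labelled p21-null, where 2.44% of all features were lower without overlap and 4.43% higher. Plau and Adamts19 reached the filter on dim probes only with their wild type arrays, where they were brighter, so these counts support no direction.

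Differences were below 0 for 25 members (64.1%, beside 52.3% of all features) and above 0 for 14 (35.9%, beside 47.7%). The median difference was −0.24 over the members and −0.03 over all features. Plau, Plaur, Adamts15, Adamts19, Adamts20, Mmp10 and Mmp12, all below 0, reached the filter on dim probes only with their wild type arrays. So did Mmp9, which was above 0. With the filter set to all 8 arrays, 18 of 27 members were below 0 (median −0.33, beside −0.03 over all features). The 95% interval of the difference included 0 for 35 members. The genes varied more within a group than most: the median SD was 0.71 among arrays labelled p21-null and 0.90 among wild type arrays, beside 0.45 and 0.61 over all features. The part of dim probes in that spread was not tested. Differences of at least 2-fold in either direction were found for 7 members (17.9%, beside 14.9% of all features).

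**Figure D1:**
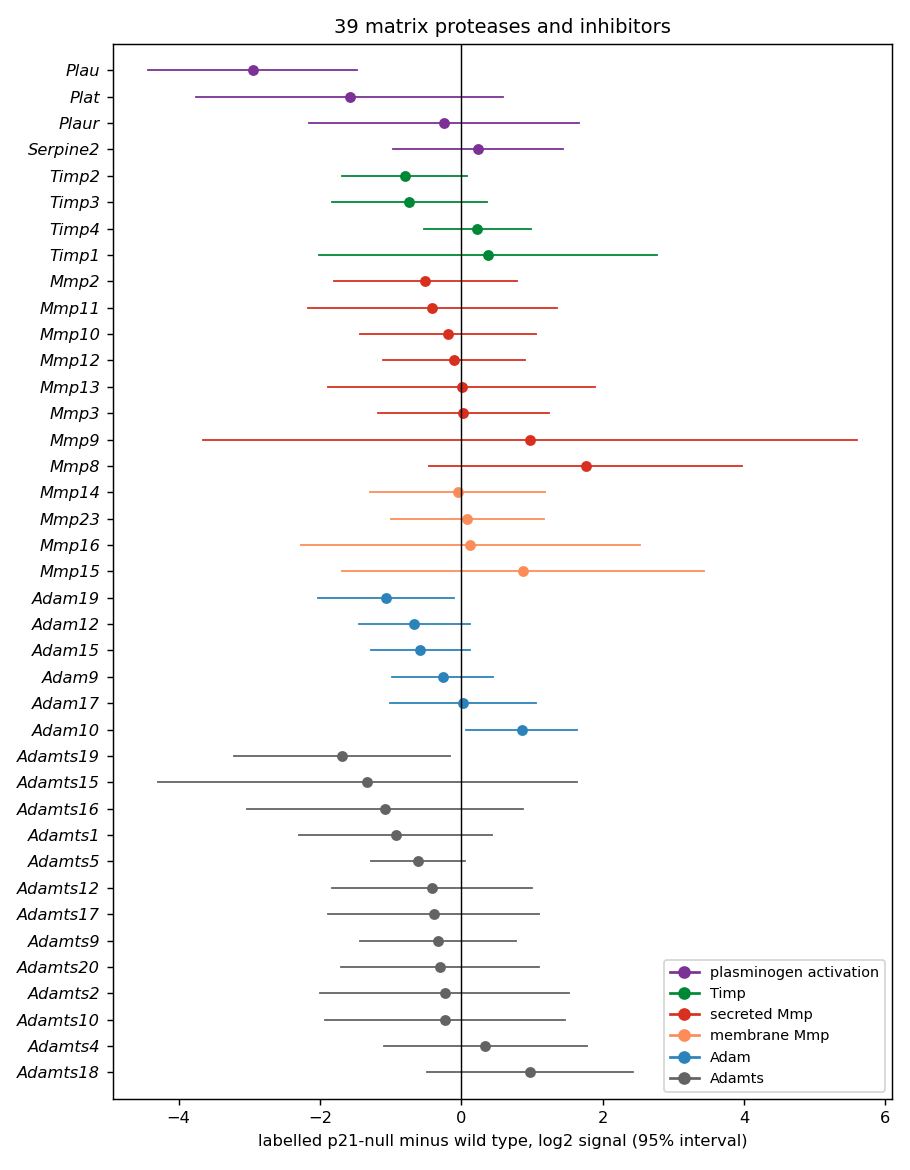
Difference in log2 signal (horizontal axis, labelled p21-null minus wild type) for each of the 39 genes, grouped by role, with points for the estimate and lines for its 95% interval (3 against 5 arrays). The interval lies below 0 for Plau, Adam19 and Adamts19, above 0 for Adam10, and includes 0 for the other 35 genes. Plau and Adamts19 passed the filter on dim probes only with their wild type arrays, so their intervals are a description.

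By role, the differences were split as follows. Of the 8 secreted Mmp genes, 4 had a positive and 4 a negative difference (median −0.05), and of the 4 membrane Mmp genes 3 were positive and 1 negative (median 0.11). The Timps were also divided, 2 higher and 2 lower (median −0.26). Adam genes were 2 higher and 4 lower (median −0.42), and Adamts genes 2 higher and 11 lower (median −0.39). Plasminogen activation had 1 higher and 3 lower (median −0.91). These are counts of signs and carry no test. They rest on the brightest probe. Further probes of Adamts2, Adamts12, Adamts17 and Adam12, all counted here as lower, gave positive differences.

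Plau encodes urokinase, the plasminogen activator that works at the cell surface, and it had the smallest p of the 39 genes. Its signal was −8.32, −7.68 and −6.52 in the arrays labelled p21-null, against −2.78, −5.11, −4.45, −4.83 and −5.60 in the wild type arrays. All 3 arrays labelled p21-null lay below all 5 wild type arrays, and the probe stood well above background on all 5 wild type arrays but on 0 of the 3 labelled p21-null. Plau averaged −7.51 ± 0.91 in arrays labelled p21-null (SD, n = 3) and −4.56 ± 1.08 in wild type arrays (SD, n = 5). Since the lower group was measured only as a bound, the Plau mean was at least 2.55-fold lower there under the main background treatment. No allowance for the spread among arrays is in this bound. Wild type replicate 1, the highest array at −2.78, raises the wild type mean, and the bound was not recomputed without it. That bound sets the wild type mean against the mean, over the dim arrays, of the higher of the probe's own signal and the lowest signal well above background. The fitted difference was −2.95 (SE 0.65, 95% interval −4.43 to −1.47) with an adjusted p of 0.280. Leaving out 1 array at a time gave −3.44 to −2.51, the last without wild type replicate 1. The probe passed the filter on dim probes, 3 of 8 arrays above background, through its wild type arrays alone. Passing in that way favours probes that are brighter in the wild type arrays, so the difference and p of Plau are a description.

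As bounds within slides, Plau was at least 4.29-fold lower in the array labelled p21-null on slide 1, at least 1.66-fold on slide 2 and at least 1.26-fold on slide 3. With slide as a block the fitted difference was −2.88. The bounds hold only for the main treatment of dim spots, on which the size depended. The fitted difference was −0.81 after normexp background correction and −0.86 in the authors' deposited log2 values. The unadjusted p then missed 0.05 (0.0973 and 0.0705).

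Plat encodes the tissue-type activator. Its signal was −2.33, −2.46 and −2.88 in the arrays labelled p21-null, against 0.18, −0.52, −0.45, −4.31 and 0.23 in the wild type arrays. Wild type replicate 4 was below every other array, and the other 4 wild type arrays were all above the 3 labelled p21-null. The difference was −1.58 (SE 0.96, 95% interval −3.75 to 0.58, adjusted p = 0.648). Without wild type replicate 4 it was −2.42 with an adjusted p of 0.202. Within slides the values were −2.07, 1.84 and −3.11, the positive one on the slide of that array. With slide as a block the difference was −1.25.

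Plaur, the receptor that holds urokinase at the cell surface, was at −3.98, −6.99 and −3.72 in the arrays labelled p21-null, against −3.80, −4.60, −6.31, −3.68 and −4.87 in the wild type arrays. The groups overlapped across most of their ranges. It was above background on 2 of the 3 labelled p21-null and on 4 of 5 wild type arrays, and the difference was −0.24 (95% interval −2.15 to 1.67). Leaving out labelled p21-null replicate 2 turned it to 0.80, and leaving out replicate 3 moved it to −0.83.

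Serpine2, also called protease nexin-1, inhibits plasminogen activators and thrombin. It was at 1.95, 0.28 and 1.41 in the arrays labelled p21-null, against 0.19, 1.29, 0.18, 1.29 and 1.93 in the wild type arrays. Both groups spanned nearly the same range, and the difference was 0.23 (SE 0.53, 95% interval −0.96 to 1.43). Leaving out 1 array at a time gave −0.13 to 0.70.

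**Figure D2:**
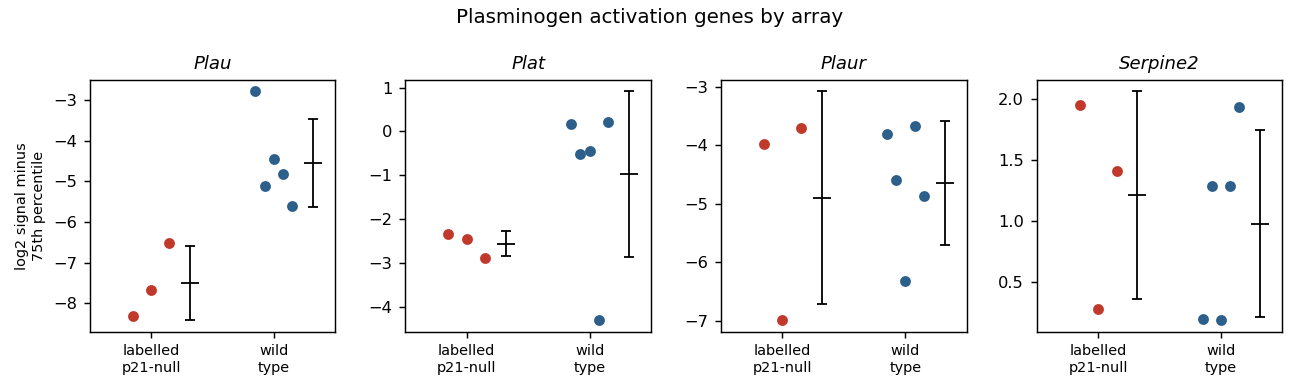
Log2 signal relative to the 75th percentile (vertical axis) of Plau, Plat, Plaur and Serpine2, with 1 point per array, and the mean and SD beside the points (3 arrays labelled p21-null on the left, 5 wild type arrays on the right). Plau does not overlap between the groups, and 1 wild type array at −4.31 lies apart for Plat.

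Among the 4 Timps, Timp2 had the smallest p. Timp2 blocks Mmp2 and is also needed for its activation at the cell surface. Its signal was 2.48, 2.44 and 1.91 in the arrays labelled p21-null, against 2.23, 3.63, 2.91, 2.95 and 3.70 in the wild type arrays. Wild type replicate 1 fell within the range of the other group and the remaining 4 wild type arrays were above it. Timp2 averaged 2.28 ± 0.32 in arrays labelled p21-null (SD, n = 3) and 3.08 ± 0.60 in wild type arrays (SD, n = 5), which differ by −0.80 (SE 0.39, 95% interval −1.69 to 0.08, adjusted p = 0.545). It was lower in the array labelled p21-null on every slide, at −0.44, −0.51 and −1.79. A further Timp2 probe gave −0.39.

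Timp3, the member of the family that stays bound to the matrix, was at −0.49, −2.24 and −0.10 in the arrays labelled p21-null, against −0.20, 0.16, −0.54, −0.51 and 0.06 in the wild type arrays. Labelled p21-null replicate 2 was the lowest of the 8 arrays and the others overlapped. The difference of −0.74 (SE 0.48) shrank to −0.09 without that array.

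Timp1, which is secreted and inhibits many metalloproteinases, was at 1.42, −2.37 and 1.19 in the arrays labelled p21-null, against −1.33, 0.60, −2.18, 1.54 and −0.10 in the wild type arrays. The groups covered nearly the same range, and the difference was 0.37 (SE 1.06, 95% interval −2.02 to 2.76). It was 1.60 when labelled p21-null replicate 2 was left out and −0.30 when replicate 1 was. Timp4 was at 0.30, 0.18 and 0.47 in the arrays labelled p21-null, against 0.34, 0.67, −0.07, −0.60 and 0.13 in the wild type arrays. The 3 arrays labelled p21-null lay inside the wild type range, with a difference of 0.22 (SE 0.33, 95% interval −0.53 to 0.98).

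The gelatinases digest denatured collagen and basement membrane collagen. Mmp2, the gelatinase made widely by stromal cells, was at 0.88, 1.47 and 0.30 in the arrays labelled p21-null, against 0.92, 2.63, −0.0004, 1.55 and 1.86 in the wild type arrays. The arrays labelled p21-null lay within the wild type range, and the difference was −0.51 (SE 0.57, 95% interval −1.81 to 0.79). Mmp14, the membrane-bound enzyme that activates the Mmp2 precursor, was at 1.68, 0.67 and 1.13 in the arrays labelled p21-null, against 1.12, 2.18, 0.05, 0.55 and 2.14 in the wild type arrays. Its difference was −0.05 (SE 0.55, 95% interval −1.29 to 1.19), which turned to 0.0131 when arrays were scaled to their median.

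Mmp9, the other gelatinase, had the widest spread of the genes given array by array. It was at 0.49, −7.64 and −0.92 in the arrays labelled p21-null, against −7.83, −0.58, −1.68, −3.50 and −4.71 in the wild type arrays. Labelled p21-null replicate 2 and wild type replicate 1 lay far below the other 6 arrays. The probe was above background on 2 of the 3 labelled p21-null and on 4 of 5 wild type arrays, and the difference of 0.97 (SE 2.05) had a 95% interval from −3.66 to 5.60. It was 3.44 without labelled p21-null replicate 2, −0.62 without replicate 1, 0.08 without replicate 3, and −0.07 without wild type replicate 1.

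Mmp8, the collagenase known from neutrophils, was at −2.18, −4.39 and −2.93 in the arrays labelled p21-null, against −4.38, −3.16, −7.91, −4.83 and −4.32 in the wild type arrays. Replicates 1 and 3 labelled p21-null were above all wild type arrays, and replicate 2 was among them. It had the smallest p of the 12 Mmp members, with a difference of 1.76 (SE 0.98, 95% interval −0.46 to 3.97, adjusted p = 0.615). The difference was 1.01 without wild type replicate 3, the dimmest of the 8 arrays, and 2.37 without labelled p21-null replicate 2. Normexp correction gave 0.94. The neutrophil markers stood at a mean of 2.06, −0.01 and 3.0 in the arrays labelled p21-null, against −0.02, −1.60, −1.72, −1.10 and 1.15 in the wild type arrays. Their summed linear level was 47.9 to 101 in the arrays labelled p21-null and 32.2 to 66.5 in wild type arrays, with all 8 markers above background on all 8 arrays. Much of that sum is Csf3r, which averaged 5.24 in both groups, while the other 7 markers were higher by 1.63 to 3.83 in log2 signal. Their part in the Mmp8 and Mmp9 results was not tested.

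**Figure D3:**
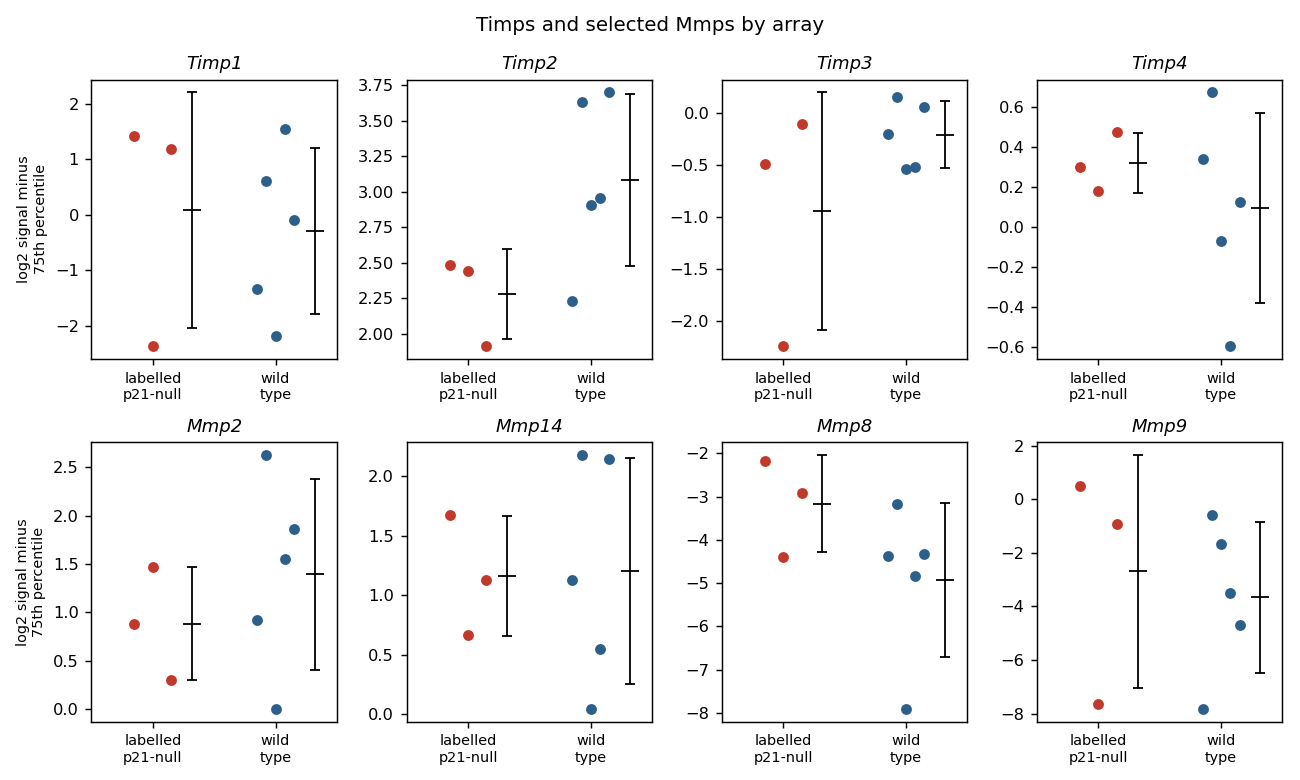
Log2 signal relative to the 75th percentile (vertical axis) of the 4 Timps and of Mmp2, Mmp14, Mmp8 and Mmp9, with 1 point per array, and the mean and SD beside the points (3 arrays labelled p21-null on the left, 5 wild type arrays on the right). The groups overlap in all 8 genes, and Mmp9 and Timp1 have arrays far apart within both groups.

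Mmp8 lies in a cluster on chromosome 9 that holds, in order, Mmp13, Mmp12, Mmp1b, Mmp3, Mmp1a, Mmp10, Mmp8, Mmp27, Mmp20 and Mmp7. Promoters of this cluster are known for binding sites of the AP-1 transcription factor. The 7-letter AP-1 motif TGANTCA was searched in the 250 bases upstream of each RefSeq start, where it reads the same on both strands. It was found for 6 of the 26 members with a promoter entry (23.1%): Plaur, Mmp13, Mmp12, Mmp3, Mmp10 and Adam19. A gene was counted if any of its entries held the motif. Mmp12 has 2 entries and Adam19 has 3, and in both genes not every entry holds it. The Mmp12 window below is that of the entry with the motif, and the entry without it is not shown. Among all genes with an entry 2113 of 27025 (7.82%) held it, and among all promoters 6.75%. The windows of 100 bases before the starts of the 5 cluster members are shown because 4 of them hold the motif, in capitals, and that of Mmp8 does not. All are on the plus strand of GRCm38.p6 from RefSeq, at chr9:7272414-7272513 (Mmp13), chr9:7347274-7347373 (Mmp12), chr9:7445722-7445821 (Mmp3), chr9:7502242-7502341 (Mmp10) and chr9:7558329-7558428 (Mmp8).
Mmp13: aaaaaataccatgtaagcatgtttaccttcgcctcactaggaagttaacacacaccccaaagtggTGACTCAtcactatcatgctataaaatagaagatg
Mmp12: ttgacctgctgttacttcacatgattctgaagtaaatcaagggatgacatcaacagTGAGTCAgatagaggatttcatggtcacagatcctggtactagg
Mmp3: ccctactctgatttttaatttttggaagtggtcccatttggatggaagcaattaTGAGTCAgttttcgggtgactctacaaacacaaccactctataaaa
Mmp10: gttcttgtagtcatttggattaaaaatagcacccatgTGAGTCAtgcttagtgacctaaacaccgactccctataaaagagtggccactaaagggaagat
Mmp8: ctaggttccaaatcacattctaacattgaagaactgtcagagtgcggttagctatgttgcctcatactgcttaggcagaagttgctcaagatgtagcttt
A match describes these letters and is not a measured binding site.

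The 4 cluster genes with the motif, the collagenase Mmp13, the macrophage elastase Mmp12 and the stromelysins Mmp3 and Mmp10, had differences from −0.19 to 0.03 with unadjusted p from 0.741 to 0.995. Their signals lay between −7.16 and −2.20, and none of these 4 was above background on all 8 arrays. Their SEs were 0.44 to 0.84, and the widest interval, that of Mmp13, ran from −1.88 to 1.89. Including Mmp11, the 5 secreted Mmp genes not described array by array had differences from −0.41 to 0.03. The membrane Mmp genes Mmp15, Mmp16 and Mmp23 were 0.08 to 0.87 higher in the arrays labelled p21-null, with unadjusted p from 0.462 to 0.907.

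Adam10 is the protease that releases the outer part of Notch receptors and cleaves the amyloid precursor at its alpha site. It was the only member higher in the arrays labelled p21-null at an unadjusted p under 0.05. Its signal was 3.21, 2.29 and 3.29 in those arrays, against 1.80, 1.80, 2.25, 1.91 and 2.60 in the wild type arrays. Replicate 2 labelled p21-null was below wild type replicate 5 and above the other 4. Adam10 averaged 2.93 ± 0.55 in arrays labelled p21-null (SD, n = 3) and 2.07 ± 0.35 in wild type arrays (SD, n = 5), which differ by 0.86 (SE 0.35, 95% interval 0.07 to 1.64, adjusted p = 0.451). Within slides the values were 1.26, 0.38 and 0.69.

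Adam19, also called meltrin beta and needed in mice for heart development, ran the other way. It was at −1.36, −0.63 and −0.77 in the arrays labelled p21-null, against 0.32, 0.90, −0.50, −0.62 and 0.60 in the wild type arrays. The groups did not overlap, but the gap was small: labelled p21-null replicate 2 lay just under wild type replicate 4. The difference was −1.06 (SE 0.43, 95% interval −2.02 to −0.10, adjusted p = 0.445). By exact permutation (two-sided) p was 0.0357. The same test gave 0.0536 for Adam10 and 0.0714 for Adam12. For Plau and Adamts19, whose p is a description, it gave 0.0179 and 0.0714. Within slides the Adam19 difference was −1.60, −0.0066 and −1.37, and with slide as a block −1.08 with an unadjusted p of 0.0542.

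Adam12, or meltrin alpha, was at −0.93, −1.31 and −1.01 in the arrays labelled p21-null, against −0.63, −0.46, −0.90, −0.53 and 0.42 in the wild type arrays. The groups did not overlap, and the difference was −0.67 (SE 0.35, adjusted p over all features 0.579). The other Adam12 probes did not follow, with differences of −0.07 and 1.56, and the mean of its probes gave 0.27.

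Adam15, a membrane protein that also binds integrins, was at 1.31, 0.69 and 1.10 in the arrays labelled p21-null, against 1.92, 1.80, 1.65, 1.66 and 1.02 in the wild type arrays. Wild type replicate 5 fell among the other group and the remaining 4 wild type arrays were above it. The difference was −0.58 (SE 0.31). Adam9 and Adam17, the enzyme that releases tumour necrosis factor, had differences from −0.26 to 0.02.

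Adamts19 had the second smallest p of the 39. It was at −7.69, −4.78 and −6.19 in the arrays labelled p21-null, against −3.70, −4.36, −4.87, −5.72 and −3.99 in the wild type arrays. Replicates 1 and 3 labelled p21-null were below all wild type arrays, and replicate 2 was among them. The probe was above background on 1 of the 3 labelled p21-null and on 5 of 5 wild type arrays. It passed the filter on dim probes only with its wild type arrays, so its difference and p are a description. The difference was −1.69 (SE 0.68, 95% interval −3.22 to −0.16, adjusted p = 0.445). Within slides it was −3.37, 0.94 and −2.21, and with slide as a block −1.81 with an unadjusted p of 0.0522. Without labelled p21-null replicate 1 it was −0.96, without replicate 2 it was −2.41, and normexp correction gave −0.66.

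Adamts1 and Adamts5 are neighbours on chromosome 16, and both cut large proteoglycans. Adamts5, an aggrecanase, was at 0.28, −0.40 and −0.04 in the arrays labelled p21-null, against 0.57, 0.68, 0.10, 0.69 and 0.79 in the wild type arrays. Only labelled p21-null replicate 1 and wild type replicate 3 crossed. The difference was −0.61 (SE 0.30, adjusted p = 0.536), lower on each slide at −0.16, −1.09 and −0.82, and a further probe gave −1.38.

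Adamts1 was at 0.33, −1.20 and −0.57 in the arrays labelled p21-null, against 1.13, 0.03, 0.42, 1.64 and −0.97 in the wild type arrays. Wild type replicates 2 and 5 lay within the range of the arrays labelled p21-null, and the difference was −0.93 (SE 0.61).

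Adamts16 was at −2.83, −2.40 and −4.04 in the arrays labelled p21-null, against −0.28, −4.31, −0.81, −1.98 and −2.66 in the wild type arrays. The wild type arrays spanned the whole range of the other group, and the difference was −1.08 (SE 0.86). Adamts18 was at −3.75, −1.04 and −3.04 in the arrays labelled p21-null, against −2.88, −4.27, −4.44, −3.37 and −2.94 in the wild type arrays. Replicate 2 labelled p21-null was the highest of the 8, and the difference of 0.97 (SE 0.65) was 0.18 without it. The other 8 Adamts genes, among them the procollagen protease Adamts2 and the aggrecanase Adamts4, were 1 higher and 7 lower, from −1.33 to 0.34, with unadjusted p from 0.337 to 0.768.

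**Figure D4:**
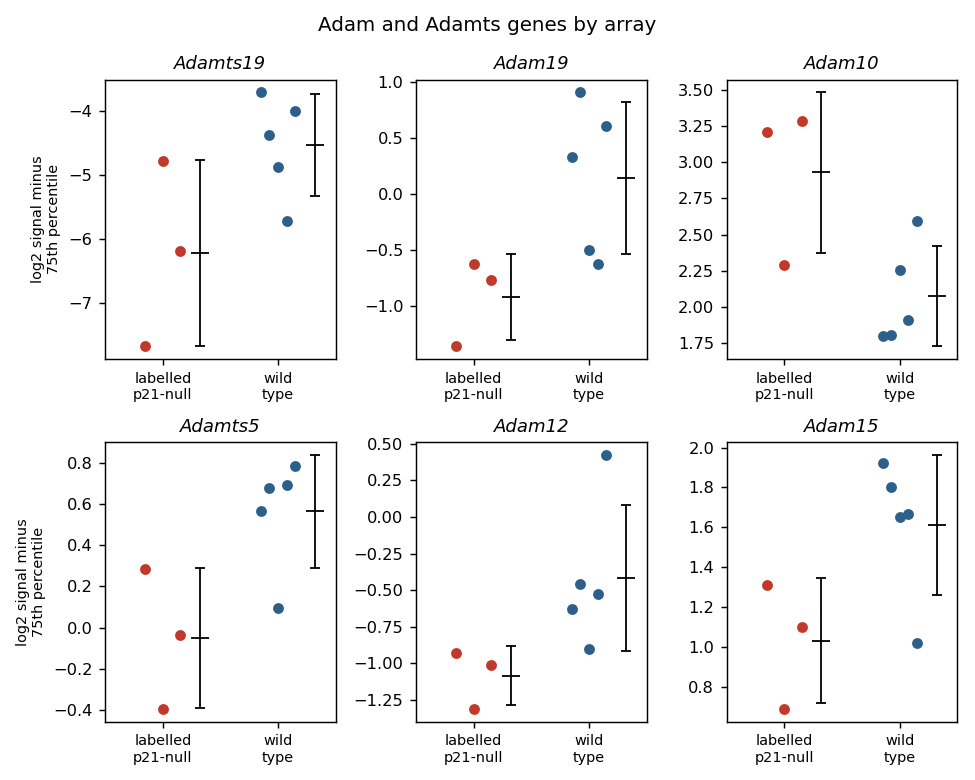
Log2 signal relative to the 75th percentile (vertical axis) of the 6 Adam and Adamts genes of smallest p among the 39 members, with 1 point per array, and the mean and SD beside the points (3 arrays labelled p21-null on the left, 5 wild type arrays on the right). Adam10 is higher in the arrays labelled p21-null, the other 5 genes are lower, and the groups do not overlap for Adam19 and Adam12.

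The genes also shared which arrays were high or low, across the groups. Labelled p21-null replicate 2 was the lowest array for 10 of the 39 members (25.6%, beside 9.14% of all features), and so was wild type replicate 3 (25.6%, beside 18.1%). Wild type replicates 2 and 5 were each the highest for 11 members (28.2%, beside 10.5% and 12.1% of all features). The median over the members was −0.49, −1.55 and −0.92 in the arrays labelled p21-null, against −0.78, 0.03, −1.35, −0.60 and −0.15 in the wild type arrays.

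Markers of stroma, the connective tissue around the tubules, stood in a similar order. The mean of the 10 stroma markers was 1.74, 0.85 and 1.35 in the arrays labelled p21-null, against 1.32, 2.14, 0.71, 1.52 and 2.69 in the wild type arrays. The same 2 arrays were lowest, and the same 2 highest, in both measures. They were so for the 4 measured smooth muscle markers too, with means of −0.58, −0.83 and −0.06 in the arrays labelled p21-null, against 0.52, 0.81, −0.88, −0.44 and 1.61 in the wild type arrays (mean difference −0.82). Of the stroma markers 3 had a positive and 7 a negative difference (mean difference −0.37). All 10 stroma markers were above background on all 8 arrays, and their summed linear level was 47.1 to 150 in the arrays labelled p21-null and 51.9 to 165 in wild type arrays. The part of stroma and smooth muscle in the results for the proteases was not tested.

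**Figure D5:**
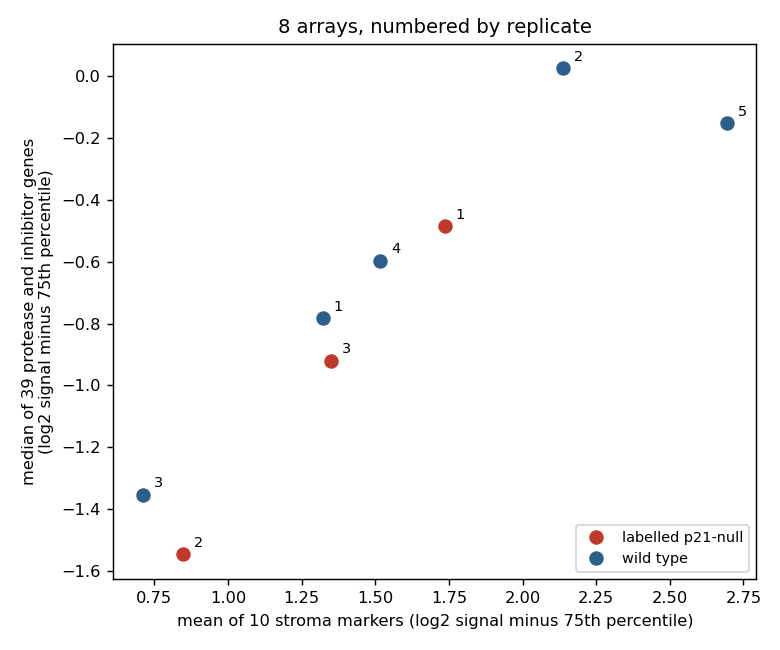
Median of the 39 genes (vertical axis) against the mean of the 10 stroma markers (horizontal axis), both as log2 signal relative to the 75th percentile, with 1 point per array numbered by replicate. Labelled p21-null replicate 2 and wild type replicate 3 are low on both axes, and wild type replicates 2 and 5 are high on both.

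Other genes of the same pathway, from a list of 51 of which 45 were measured, were 17 higher and 28 lower, with a median difference of −0.18 and none past the adjusted threshold. At an unadjusted p under 0.05 there were 6 higher (13.3%, beside 6.24% of all features) and 1 lower (2.22%, beside 3.92%). The lower one was Adam22, singled out after its value was seen. The 4 of smallest p belong to the plasma system of plasminogen and kallikrein. Plg, the plasminogen precursor that Plau and Plat cut, was at 3.99, 2.53 and 3.76 in the arrays labelled p21-null, against 0.32, −0.74, 0.28, −0.32 and 1.62 in the wild type arrays. The groups did not overlap, and the difference was 3.19 (SE 0.56, adjusted p = 0.280). F12, Klkb1 and Serpinf2, which encode coagulation factor XII, plasma prekallikrein and the plasmin inhibitor, differed by 3.31, 2.84 and 3.17, with SEs of 0.87, 0.80 and 0.90. All 4 are known as liver products, and the liver markers given above were higher in the same arrays. Their part in these differences was not tested.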

How the data were processed

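Each of 8 Agilent arrays carried total RNA of 1 sample in 1 colour. The scanner output deposited by the authors gives, per the file headers, each spot's intensity on a linear scale as Feature Extraction 10.7.3.1 computed it, corrected for background and not normalized between arrays. The authors also deposited a table of log2 values, used as an alternative. The submitters' processing notes name limma. The columns of this table correlated at 0.99996 or higher with normexp-corrected, quantile-normalized values, and their medians lay near 9.26.

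Here each array's 75th percentile was subtracted from its log2 processed intensities. Probes well above background on at least 3 of 8 arrays were kept, accessions were matched to RefSeq symbols (26056 of 55681 probes), and the brightest probe stood for a gene. A further 206 features lacking a value on an array were left out. The comparison used lmFit and eBayes (limma 3.58.1, R 4.3.3), tested on simulated data, with Benjamini-Hochberg adjustment at 0.05 and exact permutation of single values over 56 splits. Simulated log2 changes of 1, 2, 3 and 4 passed the adjusted threshold in 0%, 28%, 56% and 82% of cases, as did 7 unchanged features. A gene that did not pass may therefore still differ. Slides came from the file names: slide 1 held labelled p21-null replicate 1 and wild type replicates 1 to 3, slide 2 held labelled p21-null replicate 2 and wild type replicate 4, and slide 3 labelled p21-null replicate 3 and wild type replicate 5. Local background was 38.0 to 44.1 on slide 1 and 91.3 to 135 on the others. Alternatives changed the scaling, background correction, probe filter, probe choice, block, moderation or weights, or left out 1 array.

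The members, gene lists and tests were chosen with earlier results of these data known. Values by array are given for the 14 members of smallest p, the Timps and the plasminogen genes, and for Mmp2, Mmp9 and Mmp14, added after their values were seen. Other pathway genes are named by the 4 smallest p. The planned mean spot intensity is not a column here, so normexp used medians (offset 50).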

Additional observations from a re-analysis of the deposited data

Results flagged for a closer look

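In a single wild type array, 2 of the 39 genes stood apart from the other 4 wild type arrays by Dixon's test (critical value 0.71). Plat was at −4.31 in wild type replicate 4. Adamts17 was at −1.35 in wild type replicate 3. That is 5.13% of the members, beside 6.07% of all features, and chance alone marks about 1 in 20 groups.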

How the results depend on the processing

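Over 20 alternatives (19 for Plau, Adamts19, Mmp8, Mmp9 and Plaur, which the filter for signal above background on all arrays removes), 15 of the 21 members given with their differences kept their direction and 6 did not. Mmp14 was 0.0131 with median scaling and 0.0436 with a replicate block, Plaur 0.00845 with a replicate block and 0.40 with array weights, and Adam12 0.27 with the mean of its probes. Leaving out 1 array at a time gave −0.34 to 0.20 for Mmp14, −0.83 to 0.80 for Plaur, −0.62 to 3.44 for Mmp9, −0.30 to 1.60 for Timp1 and −0.13 to 0.70 for Serpine2. Of the other 18 members, 17 turned under some alternative. The median difference over the members was −0.54 to −0.09, and 21 to 30 were below 0, with 1 array left out. Features past the adjusted threshold numbered 0, but 4 with normexp, 13 with array weights (which gave labelled p21-null replicate 3 a weight of 4.02, against 0.52 to 1.33) and 0 to 1 with 1 array left out (1 without wild type replicate 4). At an unadjusted p under 0.05 there were 3395 features, 6474 with array weights and 1744 to 3802 with 1 array left out (fewest without labelled p21-null replicate 3). Members at that level numbered 4, but 2 among those above background on all arrays, 2 with slide as a block, 8 with array weights and 1 to 5 with 1 array left out (1 without labelled p21-null replicate 1 or 3, 2 without wild type replicate 1). The cause of these shifts was not tested. The fit with the replicate number as a block gave 3876 features and 5 members at an unadjusted p under 0.05, with 22 members below 0 (median −0.10), and moved Plat to −2.29 and Timp1 to 1.05. Deviations of same-numbered arrays correlated at 0.0652, −0.0854 and −0.0740, and the first of these pairs also shared a slide. Arrays of the 2 groups on the same slide but with other numbers correlated at 0.0184 to 0.228. So few arrays cannot tell whether the numbers mark pairs. Dim probes limit the members not above background on every array, among them Plau, Adamts19, Mmp8, Mmp9 and Plaur.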

Other observations

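Several probes read 10 of the members, and 50 probes read the 39 genes in all. A further Adamts16 probe gave a difference of −1.22, beside −1.08 for the brightest, and a further Adamts5 probe −1.38, beside −0.61. The probes of Adam12 gave −0.67, −0.07 and 1.56, so that the direction depended on the probe. It did so too for Adamts2, Adamts12 and Adamts17. Their further probes gave 0.02, 0.46 and 0.35, beside −0.24, −0.42 and −0.39 for the brightest. The further probes of Adam17, Mmp11 and Timp2 kept the direction of the brightest. A further Mmp12 probe was not above background on any array and was not tested.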
